A study of Homo sapiens with 101 samples.

Results

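The thioredoxin and peroxiredoxin system was followed through 10 genes: the thioredoxins TXN and TXN2, the thioredoxin reductase TXNRD1, the sulfiredoxin SRXN1 and the peroxiredoxins PRDX1, PRDX2, PRDX3, PRDX4, PRDX5 and PRDX6. The genes were chosen by name and function. Every array probe set annotated to one of these genes alone was taken, which gave 17 probe sets for 9 of the 10 genes. All 9 were among the 11496 genes tested, each read from its brightest probe set on average, and PRDX5 was not analysed here. Across 11 compounds, TXNRD1 rose in 5 and SRXN1 in 4, by up to 2.31-fold and 3.30-fold. No thioredoxin or peroxiredoxin gene reached a 1.5-fold change with any compound.

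Thioredoxins are small proteins that reduce disulfide bonds in other proteins and are themselves restored by thioredoxin reductases, selenium-containing enzymes that spend NADPH. Peroxiredoxins break down hydrogen peroxide with a reactive cysteine, which thioredoxin restores in most family members, and sulfiredoxin repairs peroxiredoxins whose cysteine has been overoxidised. TXN and TXNRD1 work mainly in the cytosol and nucleus, TXN2 and PRDX3 in mitochondria, and PRDX4 in the secretory pathway. TXNRD1, SRXN1, TXN and PRDX1 are known targets of NRF2 (gene NFE2L2), a transcription factor that KEAP1 holds back until oxidants or electrophiles modify KEAP1.

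Transcripts were measured in HT1080, a human fibrosarcoma line, with 101 Affymetrix arrays in 17 groups: 11 of treated cells and 6 of controls. Each compound was given at a single dose that the series text ties to a 1.5-fold increase of total p53, with stocks in DMSO, and the labels give no exposure time. Mitomycin C (MMC, 0.1 µM, 5 samples) and etoposide (ETP, 0.3 µM) are DNA damaging drugs, and neocarzinostatin (NCS, 10 ng/ml) breaks DNA strands. Ethylnitrosourea (ENU, 2 mM) and methyl methanesulfonate (MMS, 200 µM) alkylate DNA. Hydrogen peroxide (H2O2, 100 µM, 5 samples) is an oxidant and tert-butylhydroquinone (tBHQ, 200 µM) a phenolic antioxidant used to activate NRF2. Curcumin (CUR, 10 µM) and quercetin (QUE, 30 µM) are plant polyphenols, and GAD (2 mM) and BRO (600 µM) are known here by their labels only. Groups without a stated size held 6 samples. MMC, NCS, H2O2, ENU, GAD and tBHQ were set against the same 6 samples labelled DMSO_pooled, a tie inferred from the values' shared scale, so these 6 comparisons share their controls. BRO, CUR, ETP and QUE each had a DMSO control of their own (BRO_DMSO, CUR_DMSO, ETP_DMSO, QUE_DMSO), and MMS had MMS_CTL.

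Values are log2 signals, so a difference of 1 is a doubling, and levels were compared only within a compound and its control because the 6 sets differ in scale. The mesenchymal markers VIM, FN1, LOX and CDH2 had group means from 8.41 to 13.2. The leukocyte and endothelial markers and 3 of 4 epithelial markers (EPCAM, CDH1, KRT19) stayed under 4, the level needed for a test. The other epithelial marker, KRT8, was above that level, with group means from 7.87 to 8.96. KRT8 fell in GAD (-0.67), tBHQ (-0.80), MMS (-0.72) and QUE (-0.90), and 2 of the 4 mesenchymal markers fell in GAD and MMS and 1 in BRO. Their part in the results below was not tested.

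In the ETP and QUE groups the library labelled replicate 2 stood apart from the other 5. Over 11496 genes, the change from control of the library labelled ETP replicate 2 correlated at r = 0.19 with the mean of the other ETP libraries and at 0.92 with that of the other QUE libraries. The library labelled QUE replicate 2 correlated at 0.09 with the other QUE libraries and at 0.66 with the ETP libraries. The labels were kept, and values for ETP and QUE are given with and without these libraries where a call or a named value turned on them.

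**Figure D1:**
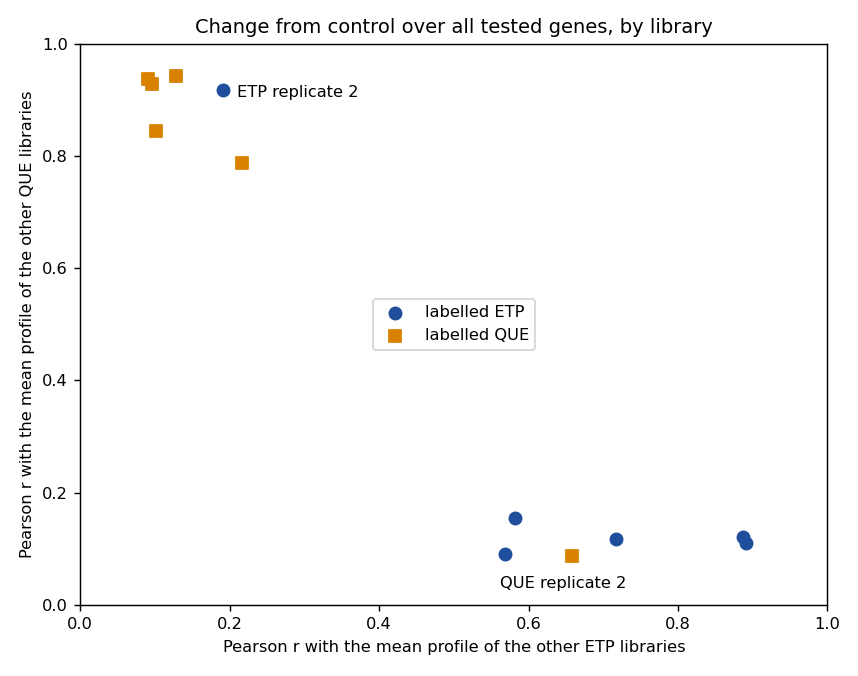
Each point is 1 treated library, placed by the Pearson correlation of its change from the control mean, over 11496 genes, with the mean profile of the other ETP libraries (horizontal axis) and of the other QUE libraries (vertical axis). The library labelled ETP replicate 2 lies among the QUE libraries (r = 0.92 with them) and the library labelled QUE replicate 2 among the ETP libraries (r = 0.66).

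Of 99 gene by compound comparisons, 9 were called, all higher: TXNRD1 and SRXN1 in GAD, tBHQ, BRO and CUR, and TXNRD1 in QUE. A call needed an adjusted p under 0.05 in limma with Benjamini-Hochberg adjustment over all genes tested, and a change of at least 1.5-fold. The fits did not pair samples by replicate number, although these numbers paired samples in 9 compounds. An adjusted p from a paired fit may therefore differ from the one given. The 2 members called in GAD stood beside 11.1% of all tested genes called higher there. The matching background for the 2 called members was 5.39% in tBHQ, 2.46% in BRO and 1.27% in CUR, and it was 6.38% for the single called member in QUE. The labels do not say whether the samples of a group came from separate cultures, so each p measures only how these samples spread, which may be technical.

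In the other 6 compounds 0 of 9 members were called by limma. All genes called higher there made up 0.165% in MMC, 1.48% in NCS and 0.765% in H2O2, and 4.76% in ENU, 4.46% in MMS and 2.06% in ETP. No member was called lower in any compound. Of all genes 15% were in GAD, 6.65% in QUE, 6.56% in MMS, 6.11% in ENU, 4.93% in BRO and 4.44% in tBHQ. The share called lower was 0.966% in NCS, 0.931% in CUR, 0.618% in ETP, 0.165% in H2O2 and 0 in MMC. Such shares of 9 members come to few genes or none, so the lack of falls is not read as a result about the members. At an unadjusted p under 0.05 the members numbered 6 in ENU, 5 in MMS, 3 in NCS, 2 in ETP, 1 in H2O2 and 0 in MMC, beside 43.1%, 45%, 24.3%, 20.3%, 15.5% and 6.69% of all genes. A further 23 of the 99 comparisons had an adjusted p under 0.05 with a change under 1.5-fold, so 29 of the 32 past that p were higher and 3 were lower. Many other genes passed that p as well: beside the 7 of 9 members in GAD stood 61.7% of all genes, beside the 5 each in MMS and QUE 35% and 33.4%, and beside the 4 each in ENU, tBHQ and BRO 33.2%, 31.9% and 30.2%. The 2 members past it in CUR and 1 in NCS stood beside 5.11% and 7.7%. The median change of the 9 members was highest in GAD, 0.27 beside 0.03 for all tested genes, and lowest in QUE, -0.14 beside -0.00353.

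**Figure D2:**
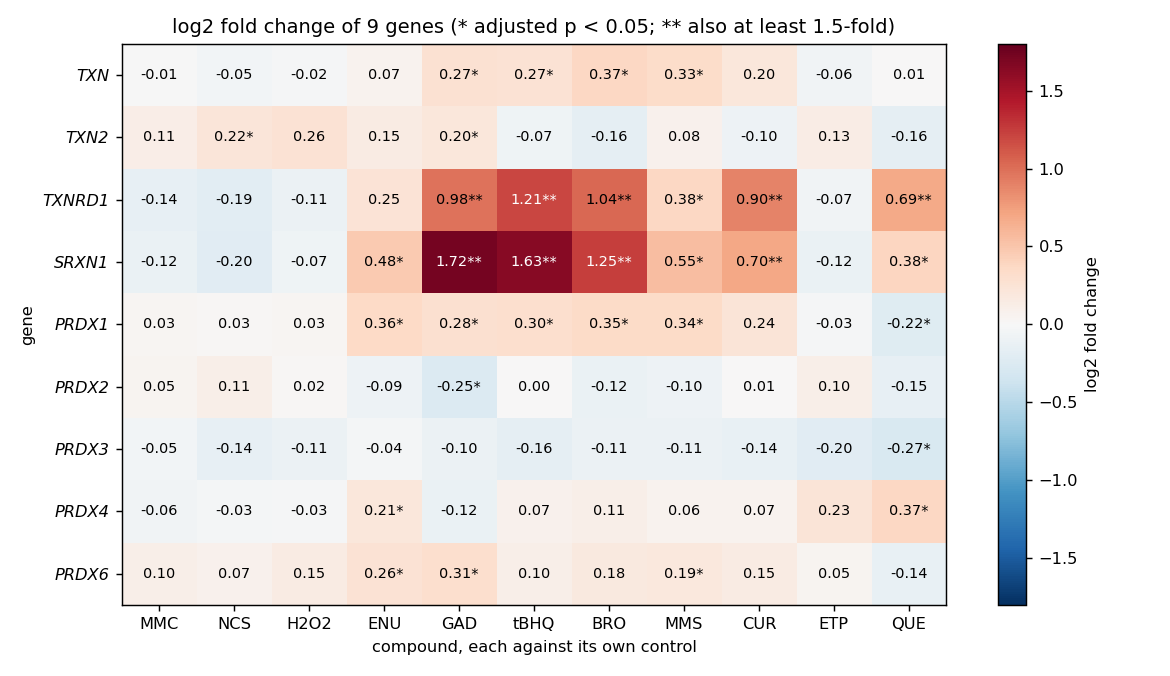
Log2 fold change of the 9 measured genes (vertical axis) for each compound against its own control (horizontal axis), with colour running from blue (lower) to red (higher). Values with 2 asterisks passed adjusted p under 0.05 and 1.5-fold, which only TXNRD1 and SRXN1 did, and values with 1 asterisk passed the p alone.

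TXNRD1 encodes the cytosolic thioredoxin reductase, the enzyme that keeps TXN reduced. RefSeq (GRCh38.p14) gives it 2 promoter windows here, the 250 bases before each start site, shown because TXNRD1 was called in more compounds than the other members and both windows hold the core of the antioxidant response element, the site NRF2 is known to bind. The motif searched was TGACNNNGC on both strands, and its match is in capitals. In the first window, chr12:104215529-104215778 on the plus strand, it reads TGACTTCGC on the strand of the gene, 99 bases before the start. In the second, chr12:104286782-104287031 on the plus strand, it reads TGACAAAGC on the opposite strand, 102 bases before the start, so that the capitals there show its reverse complement. The window of SRXN1, chr20:653201-653450 on the minus strand, is shown beside them as the other gene that rose, and these letters are not in it.
TXNRD1 first start: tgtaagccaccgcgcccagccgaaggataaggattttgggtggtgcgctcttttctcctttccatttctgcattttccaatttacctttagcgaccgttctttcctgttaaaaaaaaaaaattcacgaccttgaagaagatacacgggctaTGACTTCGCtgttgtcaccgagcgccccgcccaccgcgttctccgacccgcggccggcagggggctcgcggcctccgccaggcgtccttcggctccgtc
TXNRD1 second start: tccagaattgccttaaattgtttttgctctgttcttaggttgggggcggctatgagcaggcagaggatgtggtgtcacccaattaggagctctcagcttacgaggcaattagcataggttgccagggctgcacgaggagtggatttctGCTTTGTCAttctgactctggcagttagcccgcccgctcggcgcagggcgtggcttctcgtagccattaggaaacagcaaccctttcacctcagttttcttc
SRXN1: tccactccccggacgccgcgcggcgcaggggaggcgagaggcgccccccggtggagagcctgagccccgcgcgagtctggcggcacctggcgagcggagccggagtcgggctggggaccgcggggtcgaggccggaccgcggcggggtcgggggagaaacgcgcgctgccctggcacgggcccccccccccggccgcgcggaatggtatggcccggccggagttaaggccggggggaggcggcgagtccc
Of 9 windows of the system's genes 2 held the motif, both of TXNRD1, and of all 35116 windows of the same length 10.9% did. These 9 windows belonged to 7 genes, among them PRDX5, and TXN2, PRDX1 and PRDX6 had no window to search. A match is a description of the sequence and not a measured binding site.

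In the 6 DMSO_pooled samples TXNRD1 ran from 11.13 to 11.51, with a median of 11.32. With tBHQ it ran from 12.38 to 12.71 (median 12.51) and with GAD from 12.21 to 12.40 (median 12.30). Every sample of these groups lay above every control. The log2 fold change was 1.21 ± 0.08 (SE, n = 6 against 6; 2.31-fold, adjusted p = 4.73e-07 in limma) with tBHQ and 0.98 ± 0.07 (1.98-fold, adjusted p = 1.98e-07) with GAD. Among all 11496 genes ordered by their rise, TXNRD1 was number 108 in tBHQ and 310 in GAD, where many more genes moved.

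TXNRD1 was not called with the remaining compounds of that set, and their samples overlapped the controls. The 5 MMC samples read 11.04, 11.13, 11.04, 11.39 and 11.31. The 5 H2O2 samples read 11.16, 11.15, 11.42, 11.19 and 11.18, of which the 11.42 of replicate 3 stands above the rest. The changes were -0.14 ± 0.09 in MMC and -0.11 ± 0.09 in H2O2. NCS samples ran from 10.98 to 11.21 (median 11.17), with a change of -0.19 ± 0.08. ENU samples ran from 11.11 to 11.80 (median 11.62), where replicate 1 lay below every control and the other 5 above every control, and the change was 0.25 ± 0.11 (adjusted p = 0.110).

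In the sets with their own controls TXNRD1 rose with BRO, CUR and QUE. BRO samples ran from 11.90 to 12.42 (median 12.17) and BRO_DMSO from 10.80 to 11.27 (median 11.19), with no overlap. CUR samples ran from 12.02 to 12.41 (median 12.14) and CUR_DMSO from 11.15 to 11.48 (median 11.25), again apart. The changes were 1.04 ± 0.10 in BRO (2.05-fold, adjusted p = 2.71e-05 in limma) and 0.90 ± 0.08 in CUR (1.86-fold, adjusted p = 7.68e-05), which put TXNRD1 at number 44 and number 49 of all genes. MMS samples, 11.42 to 11.83 (median 11.58), lay wholly above MMS_CTL, 11.14 to 11.30 (median 11.19). That change, 0.38 ± 0.07 (1.30-fold, adjusted p = 0.00151), passed the p but not the fold minimum.

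For QUE and ETP the value of TXNRD1 turned on the number 2 libraries. QUE samples ran from 11.60 to 12.68 (median 12.62) against 11.68 to 11.87 in QUE_DMSO (median 11.73). The lowest value, 11.60, was the library labelled QUE replicate 2, and the other 5 read 12.68, 12.41, 12.64, 12.61 and 12.65, all above the controls. The change was 0.69 ± 0.16 (1.61-fold, adjusted p = 0.00807 in limma) with that library and 0.85 without it (adjusted p = 2.27e-06). ETP samples ran from 11.36 to 12.42 (median 11.47) against 11.60 to 11.73 in ETP_DMSO (median 11.68). Here the 12.42 belonged to the library labelled ETP replicate 2, and the other 5, at 11.53, 11.58, 11.42, 11.36 and 11.37, lay below every control. The change was -0.07 ± 0.16 with that library and -0.23 without it (adjusted p = 0.0410), under 1.5-fold both ways. The second probe set of TXNRD1 had group means from 2.08 to 2.94 and was at background. Averaging it with the first lowered the TXNRD1 change to 0.56 in GAD, 0.53 in BRO, 0.48 in CUR and 0.38 in QUE, under 1.5-fold, so those 4 calls rest on taking the brighter probe set.

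**Figure D3:**
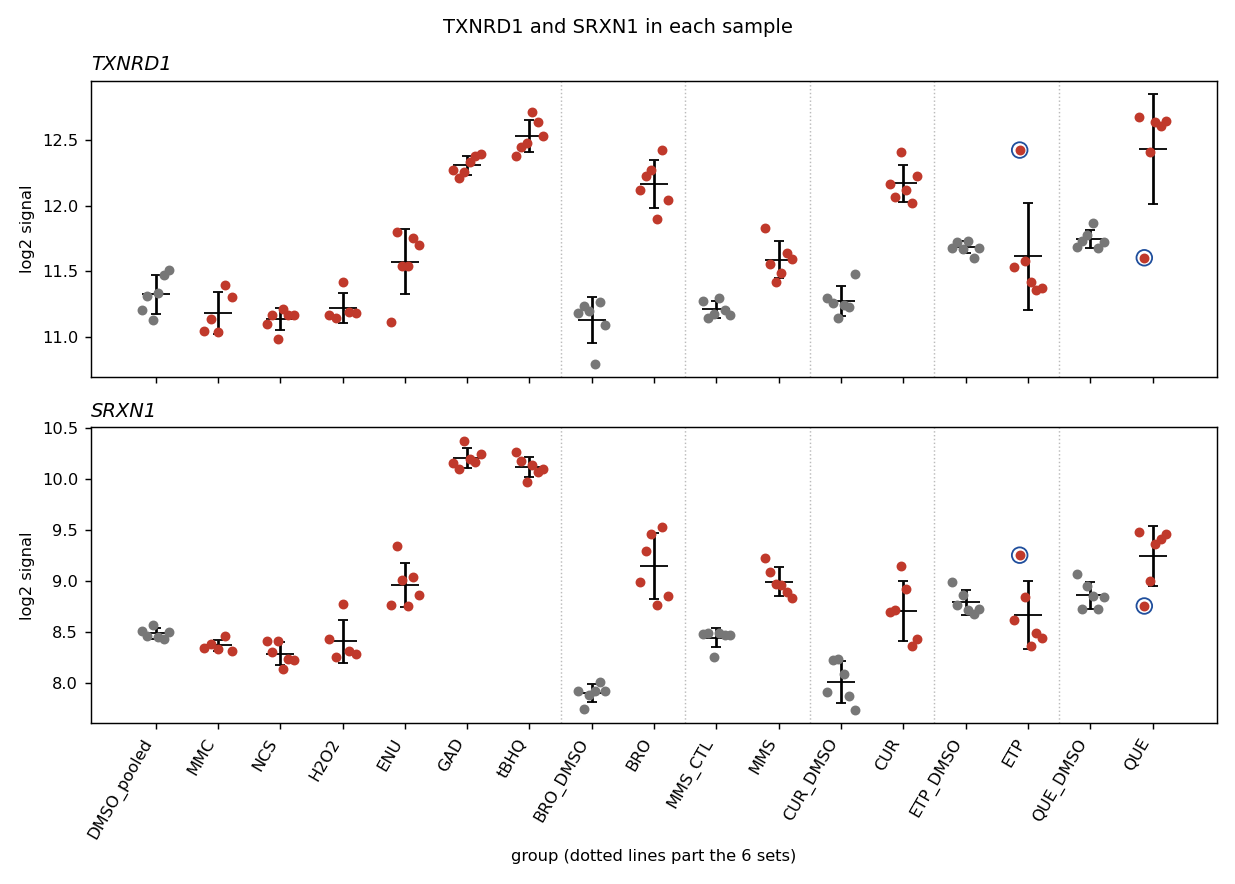
Log2 signal of TXNRD1 (top) and SRXN1 (bottom) in every sample by group, controls in grey and treated in red, with the group mean and SD as bars, dotted lines between the 6 sets, and blue rings on the number 2 libraries of ETP and QUE. The GAD, tBHQ, BRO and CUR samples lie above all samples of their own control for both genes, while the ringed QUE library lies at the level of its controls for TXNRD1.

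SRXN1 encodes sulfiredoxin, which returns overoxidised peroxiredoxins to work. It had the largest changes of the system in GAD, tBHQ and BRO. DMSO_pooled samples were tight, from 8.43 to 8.56 (median 8.48). GAD samples ran from 10.10 to 10.37 (median 10.18) and tBHQ samples from 9.97 to 10.26 (median 10.12), far above all controls. The changes were 1.72 ± 0.06 in GAD (3.30-fold, adjusted p = 3.49e-10 in limma) and 1.63 ± 0.06 in tBHQ (3.10-fold, adjusted p = 1.22e-09), number 47 and number 41 of all genes.

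BRO samples ran from 8.76 to 9.52 (median 9.14) and BRO_DMSO from 7.74 to 8.01 (median 7.91), so SRXN1 rose by 1.25 ± 0.13 (2.38-fold, adjusted p = 3.17e-05 in limma). CUR samples ran from 8.36 to 9.14 (median 8.70) and CUR_DMSO from 7.73 to 8.23 (mean 8.01). The CUR group was spread more widely but did not overlap its controls, and the rise was 0.70 ± 0.14 (1.62-fold, adjusted p = 0.0136). The alkylating agents gave smaller differences that passed the p and not the fold minimum. ENU samples, 8.76 to 9.34 (median 8.93), all lay above DMSO_pooled, a difference of 0.48 ± 0.09 (1.39-fold, adjusted p = 0.00154). MMS samples, 8.83 to 9.22 (median 8.96), all lay above MMS_CTL, 8.26 to 8.49 (median 8.47), a difference of 0.55 ± 0.08 (1.46-fold, adjusted p = 0.000135).

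SRXN1 showed the opposite direction in NCS, where samples of 8.13 to 8.41 (median 8.27) all lay below the controls. This was the single comparison of the 99 in which every treated sample was below every control, beside 1.67% of all genes in NCS, and its change of -0.20 ± 0.06 did not pass (adjusted p = 0.0758). MMC samples read 8.34, 8.38, 8.33, 8.46 and 8.31, and the change was -0.12 ± 0.06. H2O2 samples read 8.42, 8.25, 8.77, 8.32 and 8.28, where 8.77 in replicate 3 lay above every control and the other 4 below every control. QUE samples ran from 8.75 to 9.47 (median 9.38), overlapping QUE_DMSO at 8.72 to 9.07 (median 8.84). The difference of 0.38 ± 0.13 (adjusted p = 0.0344) became 0.48 without the library labelled QUE replicate 2 (adjusted p = 0.00160), still under 1.5-fold. ETP samples, 8.36 to 9.25 (median 8.55), overlapped ETP_DMSO at 8.67 to 8.99 (median 8.74), and the change was -0.12 ± 0.14, or -0.24 without the library labelled ETP replicate 2 (adjusted p = 0.129).

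TXN, the main cytosolic thioredoxin, had smaller changes than TXNRD1 and SRXN1 in each of the 11 compounds. Its group means lay between 11.65 and 12.33. In 4 compounds every treated sample lay above every control and the adjusted p was under 0.05 in limma, with changes under 1.5-fold. GAD samples ran from 12.15 to 12.25 (median 12.19) and tBHQ samples from 12.13 to 12.27 (median 12.18), against 11.80 to 12.06 in DMSO_pooled (median 11.95). Both differences were 0.27 ± 0.06 (1.21-fold and 1.20-fold, adjusted p = 0.00124 and 0.00461).

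BRO samples for TXN ran from 11.98 to 12.13 (median 12.10) and BRO_DMSO from 11.52 to 11.88 (median 11.72), a difference of 0.37 ± 0.07 (1.29-fold, adjusted p = 0.00116 in limma). MMS samples ran from 11.98 to 12.21 (median 12.05) and MMS_CTL from 11.66 to 11.84 (median 11.73), a difference of 0.33 ± 0.06 (1.26-fold, adjusted p = 0.00138). Neither pair of groups overlapped. In the other 7 compounds the treated and control samples of TXN overlapped, and the changes lay between -0.06 in ETP and 0.20 in CUR.

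TXN2, the mitochondrial thioredoxin, passed the p in NCS and GAD, under 1.5-fold, and its second probe set did not pass in either. NCS samples ran from 8.09 to 8.26 (median 8.18), all above DMSO_pooled at 7.88 to 8.06 (median 7.94), a difference of 0.22 ± 0.06 (1.17-fold, adjusted p = 0.0328 in limma). H2O2 samples read 8.16, 8.12, 8.17, 8.25 and 8.38, also all above the controls, and this difference of 0.26 ± 0.07 was the largest of TXN2 but did not pass (adjusted p = 0.0740). GAD samples, 8.05 to 8.30 (median 8.13), overlapped the controls by 1 value, with a difference of 0.20 ± 0.06 (adjusted p = 0.0121). QUE samples, 8.07 to 8.54 (median 8.19), overlapped QUE_DMSO at 8.32 to 8.50 (median 8.37). Without the library labelled QUE replicate 2, which read 8.54, the QUE samples lay below every control and the difference of -0.22 had an adjusted p of 0.0180.

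None of the 5 measured peroxiredoxins was called. PRDX1, an abundant cytosolic peroxiredoxin, had more comparisons past the p than the other 4, with 5 higher and 1 lower, all under 1.5-fold. ENU samples ran from 12.26 to 12.45 (median 12.34), GAD samples from 12.22 to 12.33 (median 12.28) and tBHQ samples from 12.21 to 12.35 (median 12.31). All lay above DMSO_pooled, 11.85 to 12.12 (median 12.01). The differences were 0.36 ± 0.07 in ENU, 0.28 ± 0.06 in GAD and 0.30 ± 0.06 in tBHQ, with adjusted p in limma of 0.00108, 0.000860 and 0.00190.

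PRDX1 was also wholly above control in BRO, MMS and CUR. BRO samples ran from 12.08 to 12.26 (median 12.14) against 11.73 to 11.86 (median 11.82), a difference of 0.35 ± 0.06 (adjusted p = 0.000628 in limma). MMS samples ran from 11.91 to 12.12 (median 12.07) against 11.66 to 11.78 (median 11.70), a difference of 0.34 ± 0.06 (adjusted p = 0.000551). CUR samples ran from 12.09 to 12.32 (median 12.21) against 11.71 to 12.04 (median 12.03), a difference of 0.24 ± 0.08 that did not pass (adjusted p = 0.0900). QUE went the other way for PRDX1, from 11.76 to 12.20 (median 12.08) against 12.16 to 12.33 (median 12.26), a difference of -0.22 ± 0.08 (adjusted p = 0.0466). Without the library labelled QUE replicate 2 the QUE samples lay below every control and the difference was -0.26 (adjusted p = 0.0143).

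**Figure D4:**
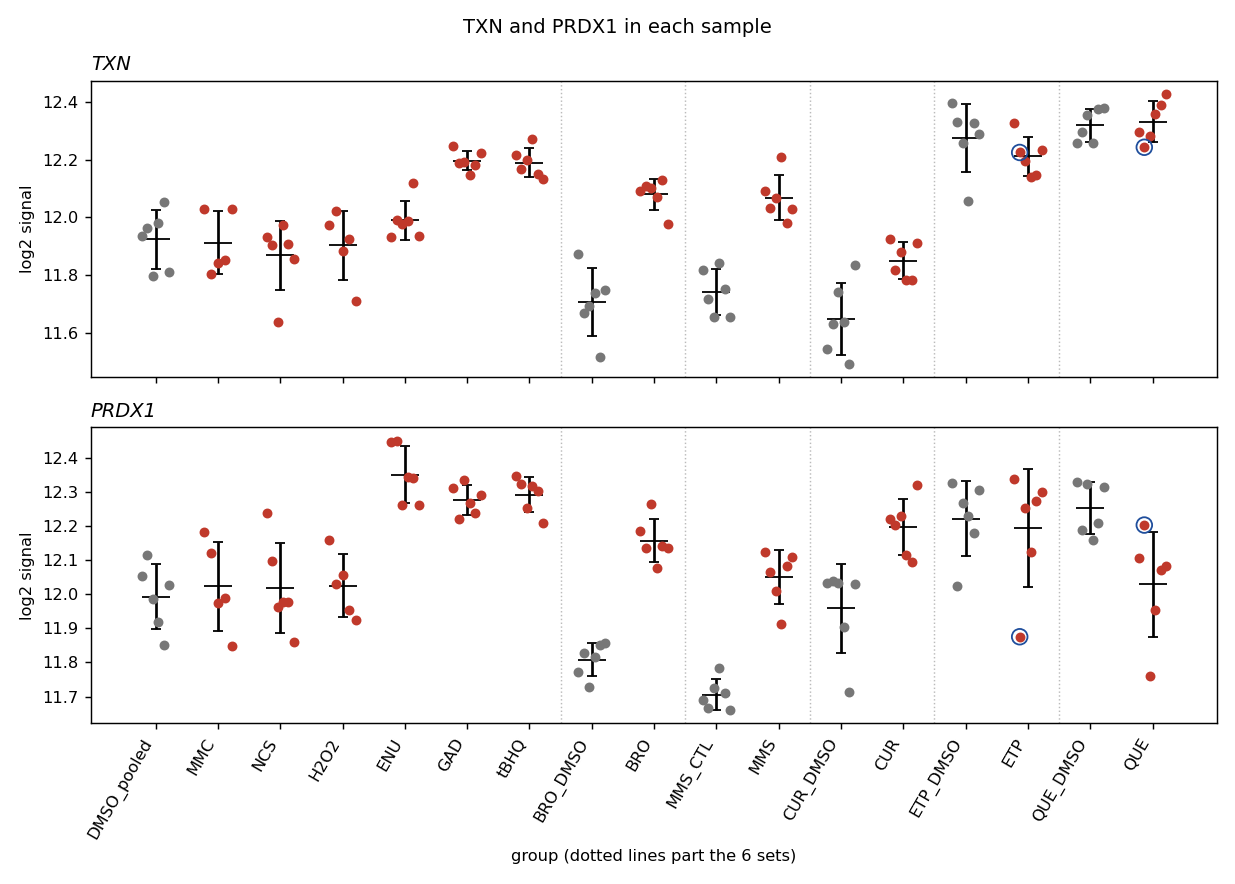
Log2 signal of TXN (top) and PRDX1 (bottom) in every sample by group, drawn as in the plot of TXNRD1 and SRXN1, with group means and SDs as bars and blue rings on the number 2 libraries of ETP and QUE. GAD, tBHQ, BRO and MMS samples lie above all samples of their own control for both genes, and the vertical axes start above 0.

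PRDX2, another cytosolic peroxiredoxin, passed the p in GAD and was lower there. GAD samples ran from 9.27 to 9.44 (median 9.36) against 9.32 to 9.74 in DMSO_pooled (median 9.63), an overlapping difference of -0.25 ± 0.07 (adjusted p = 0.00946 in limma). In ETP the library labelled replicate 2 read 9.61 for PRDX2 while the other 5 read from 10.25 to 10.55, and without QUE replicate 2 the QUE difference of PRDX2 was -0.23 (adjusted p = 0.0358 in limma) beside -0.15 with it.

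PRDX3, the mitochondrial partner of TXN2, had a change below 0 in all 11 compounds, from -0.04 in ENU to -0.27 in QUE, of which 6 share a control. Under other processing its sign turned in GAD (-0.10 to 0.13), MMS (-0.11 to 0.10), ENU (-0.05 to 0.02) and BRO (-0.13 to 0.01). The upper value in each came from averaging its 2 probe sets, of which the second was at background (group means from 3.01 to 3.83). In the other compounds it stayed below 0. Only QUE passed the p, with samples of 10.72 to 10.95 (median 10.86) overlapping QUE_DMSO at 10.87 to 11.24 (median 11.15) and a difference of -0.27 ± 0.08 (adjusted p = 0.0192 in limma). Without the library labelled QUE replicate 2 it was -0.29 (adjusted p = 0.00851).

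PRDX4, the peroxiredoxin of the secretory pathway, was highest against control in QUE. QUE samples ran from 10.77 to 11.33 (median 11.27) against 10.66 to 10.96 (median 10.86), and the low value was the library labelled QUE replicate 2. The difference was 0.37 ± 0.10 with it (1.29-fold, adjusted p = 0.0171 in limma) and 0.46 without it (adjusted p = 0.000317), when all 5 remaining samples lay above every control. ENU samples ran from 10.57 to 10.69 (median 10.62), wholly above DMSO_pooled at 10.26 to 10.55 (median 10.42), a difference of 0.21 ± 0.06 (adjusted p = 0.0242). In QUE, PRDX4 was thus above its control while PRDX1 and PRDX3 were below theirs, each past the p.

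PRDX6, which works with glutathione rather than thioredoxin, passed the p in GAD, ENU and MMS, all under 1.5-fold. GAD samples ran from 11.46 to 11.66 (median 11.56), wholly above DMSO_pooled at 11.16 to 11.41 (median 11.21), a difference of 0.31 ± 0.07 (adjusted p = 0.00116 in limma). ENU samples ran from 11.41 to 11.63 (median 11.53), a difference of 0.26 ± 0.07 (adjusted p = 0.0108), and MMS samples from 11.16 to 11.35 (median 11.25) against 10.95 to 11.20 (median 11.04), a difference of 0.19 ± 0.06 (adjusted p = 0.0284). The ENU and MMS groups each overlapped their controls. In QUE the PRDX6 difference was -0.14 ± 0.07, and without the library labelled QUE replicate 2 it was -0.19 (adjusted p = 0.0210), with the 5 samples below every control.

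Counted over the 9 members, 25 of the 99 comparisons had every treated sample above every control. By compound these were 5 members in GAD, 4 each in MMS, tBHQ and BRO, 3 each in ENU and CUR, 1 each in NCS and H2O2, and 0 in MMC, ETP and QUE. The share of all tested genes with such separation was 20.7% in GAD, 11.1% in MMS, 9.39% in tBHQ, 6.69% in BRO, 8.68% in ENU and 2.5% in CUR. It was 2.79% in NCS, 2.39% in H2O2, 0.939% in MMC, 2.85% in ETP and 4.81% in QUE. TXNRD1 and SRXN1 were each called higher in at least 4 compounds, as were 1.96% of all genes, and TXNRD1 in 5, as were 1.05%.

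In direct tests of 6 pairs of compounds, SRXN1 and TXNRD1 were the members called different. They came from 1 fit of all 17 groups, with each pair adjusted over all genes. That fit shares 1 estimate of spread per gene, which takes in the libraries labelled replicate 2 in ETP and QUE. The SD of TXNRD1 was 0.41 in ETP and 0.42 in QUE, beside 0.12 in tBHQ and 0.07 in GAD. The intervals and p of the pairs, and of the orders below, carry that spread. Only QUE minus CUR was fitted again, without the library labelled QUE replicate 2. Against H2O2, tBHQ gave a change larger by 1.71 in SRXN1 (95% interval 1.48 to 1.94, adjusted p = 5.03e-22 in limma) and by 1.31 in TXNRD1 (1.08 to 1.54, adjusted p = 2.98e-16), where 10% of genes differed. BRO exceeded H2O2 by 1.32 in SRXN1 (1.00 to 1.64) and by 1.15 in TXNRD1 (0.83 to 1.46), where 6.34% of genes differed. GAD exceeded ENU by 1.24 in SRXN1 (1.02 to 1.47) and by 0.73 in TXNRD1 (0.52 to 0.95), where 19.3% did. The doses differ in the pairs with H2O2, while GAD and ENU were both given at 2 mM. Each pair compares the doses used.

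TXN2 had the opposite sign in the pairs with H2O2. Its difference was -0.33 for tBHQ minus H2O2 (-0.46 to -0.20, adjusted p = 2.71e-05 in limma) and -0.42 for BRO minus H2O2 (-0.59 to -0.24, adjusted p = 0.000735), both under 1.5-fold. Between the polyphenol CUR and tBHQ, SRXN1 changed less in CUR, by -0.93 (-1.25 to -0.62, adjusted p = 7.17e-06), and 7.34% of genes differed. The CUR minus tBHQ difference of TXNRD1, -0.31 (-0.62 to 0.00), did not pass (adjusted p = 0.185).

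No member was called by limma between tBHQ and GAD, where 25.7% of genes differed, or between QUE and CUR, where 11.8% did, although 5 members in each pair had an unadjusted p under 0.05, beside 61.4% and 36% of all genes. With no fold minimum 4 members differed between tBHQ and GAD and 3 between QUE and CUR, beside 57.4% and 24.3% of all genes. By the same measure 5 members differed between tBHQ and H2O2 (28.7% of all genes), 5 between BRO and H2O2 (11.5%), 4 between GAD and ENU (50%) and 1 between CUR and tBHQ (13.8%). For tBHQ minus GAD the difference was -0.09 in SRXN1 (-0.31 to 0.13) and 0.22 in TXNRD1 (0.00 to 0.44). For QUE minus CUR it was -0.32 in SRXN1 (-0.63 to -0.00213) and -0.21 in TXNRD1 (-0.52 to 0.10), and the larger gap was in PRDX1, -0.46 (-0.63 to -0.29, adjusted p = 3.47e-05 in limma). A p that misses the threshold does not show that these compounds act alike, and the intervals give the differences still possible. Without the library labelled QUE replicate 2 the QUE minus CUR differences were -0.04 in TXNRD1, -0.22 in SRXN1 and -0.50 in PRDX1.

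In order of change, TXNRD1 ran tBHQ, BRO, GAD, CUR, QUE, MMS, ENU, ETP, H2O2, MMC, NCS. SRXN1 ran GAD, tBHQ, BRO, CUR, MMS, ENU, QUE, H2O2, MMC, ETP, NCS. These orders hold all libraries. Without the library labelled ETP replicate 2, ETP came last in both, at -0.23 for TXNRD1 and -0.24 for SRXN1, and without the library labelled QUE replicate 2, QUE and ENU changed places for SRXN1, both at 0.48. None of the 10 neighbouring pairs in either order passed the p and the fold minimum. By p alone SRXN1 differed between BRO and CUR, by 0.55 (adjusted p = 0.0188 in limma), and between QUE and H2O2, by 0.46 (adjusted p = 0.0355). SRXN1 had the larger change of the 2 genes in GAD, by 0.74, and in tBHQ, by 0.43, and TXNRD1 the larger in QUE, where SRXN1 minus TXNRD1 was -0.30, and in CUR, -0.20. These gaps between probe sets were not tested.

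**Figure D5:**
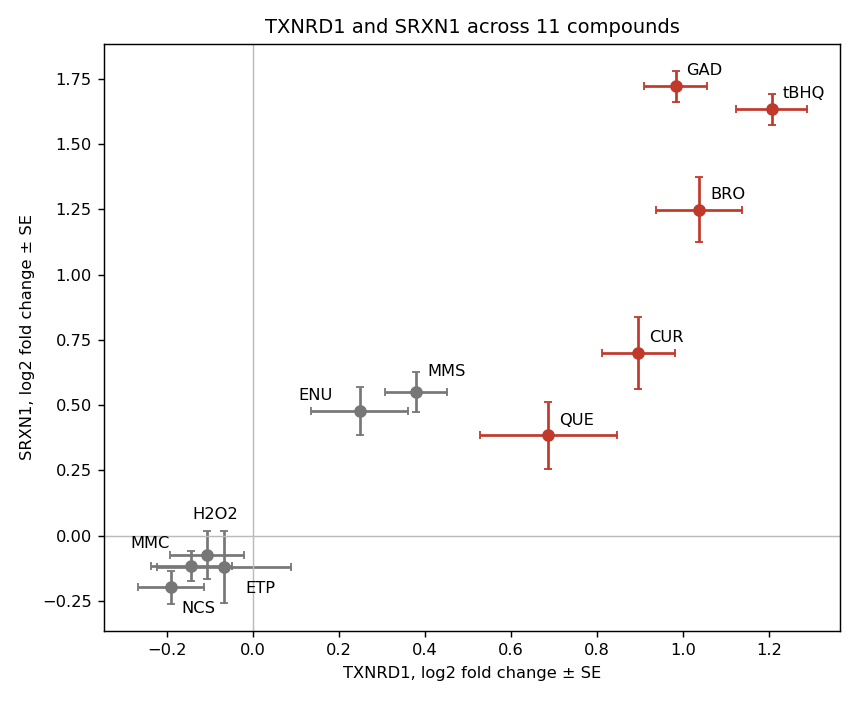
Log2 fold change of SRXN1 (vertical axis) against that of TXNRD1 (horizontal axis) for 11 compounds, each point with its SE on both axes, and red where TXNRD1 was called higher. MMC, NCS, H2O2 and ETP lie below 0 on both axes, GAD and tBHQ at the top, and CUR and QUE to the right of the path set by the others, with more TXNRD1 than SRXN1.

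The changes of TXNRD1 and SRXN1 over the 11 compounds had a Pearson r of 0.93, as a description over points of which 6 share a control. TXN had r = 0.84 with SRXN1 and 0.81 with TXNRD1, and PRDX1 had 0.84 with PRDX6. TXN2 had r = -0.70 with TXNRD1. Without the libraries labelled replicate 2 in ETP and QUE these were 0.92 for TXNRD1 and SRXN1 and -0.72 for TXN2 and TXNRD1.

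Among 2519 other genes called in at least 2 compounds, those most like TXNRD1 over the 11 changes were GSR (r = 0.97), NMRAL2P (0.96), ZCCHC2 (0.95), SLC7A11 (0.95) and GCLM (0.95). GSR is glutathione reductase, SLC7A11 the cystine transporter subunit and GCLM a subunit of the enzyme that starts glutathione synthesis. Those most like SRXN1 were AKR1C3 (0.98), WDR53 (0.98), GCLC (0.97), TLK1 (0.97) and TFE3 (0.97), where GCLC is the catalytic partner of GCLM. Without the number 2 libraries GCLC took the place of GCLM for TXNRD1 and NMRAL2P that of TFE3 for SRXN1.

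The other NRF2 targets, 19 listed genes with 16 tested, gave the highest counts of the lists beside the thioredoxin system. In tBHQ 15 of 16 rose and in GAD and BRO 12 each, with list medians of 1.36, 1.20 and 1.11 beside all-gene medians of 0.02, 0.03 and -0.02. In CUR 8 rose, in MMS 7, in QUE 6 (8 without the library labelled QUE replicate 2), in ENU 4 and in ETP 1, and none fell in any compound. All genes called higher made up 5.39% in tBHQ, 11.1% in GAD, 2.46% in BRO, 1.27% in CUR and 4.46% in MMS. They made up 6.38% in QUE (9.16% without that library), 4.76% in ENU and 2.06% in ETP. None rose in MMC, NCS or H2O2, where the list medians were 0.00, 0.05 and 0.14. Only 0.165%, 1.48% and 0.765% of all genes were called higher there, so none of 16 is near that share. HMOX1, heme oxygenase, rose by 4.49 ± 0.11 in tBHQ (adjusted p = 1.45e-11 in limma) and by 4.17 ± 0.22 in BRO (adjusted p = 1.37e-07). AKR1C1, an aldo-keto reductase whose near-identical relatives AKR1C2 and AKR1C3 may share its signal, rose by 6.22 ± 0.18 in tBHQ and 6.02 ± 0.12 in GAD. AKR1B10 was the gene that rose in ETP, by 2.44 ± 0.24 (2.36 without the library labelled ETP replicate 2), and it rose by 4.44 ± 0.42 in ENU, where TXNRD1 was not called.

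The glutathione and glutaredoxin list, 12 tested genes, runs parallel to thioredoxin as the cell's other thiol system. In tBHQ 5 rose, in GAD, BRO and CUR 4 each, in MMS and QUE 2 each (4 in QUE without the library labelled QUE replicate 2) and in ENU 1, with list medians of 0.35 in tBHQ, 0.46 in GAD, 0.22 in BRO and 0.26 in CUR beside all-gene medians of 0.02, 0.03, -0.02 and 0.04. All genes called higher were 5.39% in tBHQ, 11.1% in GAD, 2.46% in BRO and 1.27% in CUR, and 4.46% in MMS, 6.38% in QUE and 4.76% in ENU. GSR rose in tBHQ (1.31 ± 0.06), BRO (1.02 ± 0.10), GAD (0.94 ± 0.07), CUR (0.75 ± 0.11) and MMS (0.62 ± 0.09), so both disulfide reductases, GSR and TXNRD1, were called in the first 4 of these. SLC7A11 rose by 3.27 ± 0.18 in GAD and fell by 1.40 on the log2 scale in NCS, the only fall of the list there. In ETP its change was -0.96 and not called, and without the library labelled ETP replicate 2 it was -1.45 and called. In QUE it was 1.21 and not called, and without the library labelled QUE replicate 2 it was 1.70 and called.

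The regulators of NRF2 changed at the transcript level in part. Of 7 tested, MAFG and KEAP1 rose in GAD (1.15 ± 0.07 and 0.91 ± 0.07), tBHQ (1.07 ± 0.07 and 0.85 ± 0.08) and BRO (0.85 ± 0.09 and 0.62 ± 0.08). MAFG encodes a small MAF protein that pairs with NRF2 on DNA, and KEAP1 its inhibitor. MAFF, another small MAF, rose in QUE (1.02 ± 0.19, and 1.20 without the library labelled QUE replicate 2, when MAFG was called there too, at 0.71 beside 0.58 with it). NFE2L2, the gene of NRF2 itself, was not called in any compound, with changes from -0.27 in MMS to 0.21 in BRO.

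Among 9 tested relatives of thioredoxin, TXNIP, TXNRD2, TXNRD3 and NXN were called, in both directions. The list medians were -0.15 in GAD and -0.13 in tBHQ, beside 0.03 and 0.02 for all genes, and in GAD, BRO, ENU and MMS more of all genes were called lower than higher. TXNIP, which binds and inhibits reduced thioredoxin, fell in tBHQ (-3.05 ± 0.45), QUE (-2.22 ± 0.63, and -2.84 without the library labelled QUE replicate 2) and BRO (-1.06 ± 0.22). These are 3 of the compounds in which TXNRD1 rose, and in the other 2, CUR and GAD, the TXNIP changes of -1.42 and -0.58 were not called. TXNRD2, the mitochondrial thioredoxin reductase, fell in tBHQ (-1.28 ± 0.14) and GAD (-1.01 ± 0.13), where TXNRD1 rose. TXNRD3, another reductase expressed mainly in testis, rose in tBHQ (0.66 ± 0.07) and fell in ENU (-0.76 ± 0.10). Without the library labelled QUE replicate 2 it was also called in QUE (0.64, beside 0.52 with it), as was the thioredoxin-like TXNDC17 (-0.59, beside -0.47). NXN, nucleoredoxin, fell in GAD (-0.70 ± 0.10) and MMS (-0.60 ± 0.11), and its rise in ETP (0.60 ± 0.13) was not called without the library labelled ETP replicate 2 (0.52).

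Of 9 genes whose products thioredoxin serves or restrains, RRM2B, a p53-induced subunit of ribonucleotide reductase, rose in NCS, ENU, GAD, BRO, MMS, ETP and QUE, by 0.63 ± 0.12 to 1.12 ± 0.12. MAP3K5, the stress kinase ASK1 that thioredoxin holds inactive, fell in GAD (-2.67 ± 0.14), ENU (-1.12 ± 0.11), MMS (-0.66 ± 0.14) and BRO (-0.61 ± 0.11). The ribonucleotide reductase subunit RRM2 rose in MMS (0.65 ± 0.18) and fell in tBHQ (-0.69 ± 0.21) and QUE (-0.98 ± 0.31), and RRM1 rose in MMS (0.76 ± 0.10). The methionine sulfoxide reductase MSRA fell in GAD (-0.64 ± 0.09), and MSRB2 was called in QUE without the library labelled QUE replicate 2 (-0.61, beside -0.45 with it).

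Of the 3 sestrins, SESN1 rose in NCS, H2O2, ENU, BRO, MMS, ETP and QUE, between 0.59 ± 0.10 in MMS and 1.66 ± 0.13 in ENU, and its QUE value without the library labelled QUE replicate 2, 0.57, was not called. SESN2 rose in GAD (1.03 ± 0.10), ENU (0.94 ± 0.12), QUE (0.88 ± 0.17) and H2O2 (0.63 ± 0.09). SESN3 rose in NCS (0.80 ± 0.18) and fell in GAD (-1.87 ± 0.21), CUR (-0.79 ± 0.15) and MMS (-0.73 ± 0.17). Without the number 2 libraries SESN3 was also called in ETP (0.87, beside 0.60 with it) and QUE (-0.71, beside -0.41). In H2O2, NCS and ETP, where SESN1 was called, none of the 9 thioredoxin and peroxiredoxin genes was. Of all tested genes 0.765%, 1.48% and 2.06% were called higher there and 0.165%, 0.966% and 0.618% lower, so none of 9 is near those shares.

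Of the remaining lists, 3 tested genes for superoxide and peroxide removal gave SOD2 higher in tBHQ (1.07 ± 0.15) and CUR (0.69 ± 0.15), and in QUE without the library labelled QUE replicate 2 (0.59, beside 0.54 with it), and CAT, catalase, lower in GAD (-1.07 ± 0.12) and MMS (-0.64 ± 0.10). Of 6 genes that make or insert selenocysteine, the residue TXNRD1 carries, PSTK rose in GAD (0.85 ± 0.09) and ENU (0.59 ± 0.08). PSTK fell in QUE (-0.82 ± 0.23), as did SEPSECS (-0.99 ± 0.26), while TXNRD1 rose there, and without the library labelled QUE replicate 2 the values were -1.03 and -1.23. SECISBP2 was called in ETP without the library labelled ETP replicate 2 (-0.74, beside -0.56 with it). None of the 6 was called in tBHQ, BRO or CUR. Of all tested genes 5.39%, 2.46% and 1.27% were called higher there and 4.44%, 4.93% and 0.931% lower, so none of 6 is near those shares. The genes named from each list stand beside the shares of all genes called higher and lower, given above for each compound. The lists were described with no set test and were chosen with earlier results of these data known.

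Several members had more than 1 probe set, and 14 of the 17 passed the level needed for a test, all but the dim ones of TXNRD1, PRDX2 and PRDX3. The second probe set of TXN showed none of the differences of the first in GAD (-0.08 ± 0.22), tBHQ (0.01 ± 0.12), BRO (0.11 ± 0.24) or MMS (0.10 ± 0.13). For TXN2 the second gave 0.27 ± 0.07 in H2O2 beside 0.26 for the first, and -0.20 ± 0.07 in tBHQ (adjusted p = 0.0452 in limma). It did not pass in NCS (0.17 ± 0.06, adjusted p = 0.103) or GAD (0.09 ± 0.06, adjusted p = 0.175). Adjusted likewise over 21612 probe sets, the first had 0.0508 in NCS and 0.0168 in GAD. The second probe set of PRDX6 was higher in GAD (0.32 ± 0.08), BRO (0.33 ± 0.07) and MMS (0.29 ± 0.08), and its value in ENU was 0.11 ± 0.09 beside 0.26 for the first. For PRDX2 the other 2 tested probe sets gave -0.11 ± 0.10 and 0.09 ± 0.08 in GAD beside -0.25 for the brightest, so the probe sets of PRDX2 disagree in sign there.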

How the data were processed

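The authors deposited log2 signals per probe set. Per the submitters' processing notes Partek and GCRMA were used, without versions, and the genome build is not given in the sources used here. Array quantiles were alike within 6 sets of groups and differed between sets, so each compound was compared only with the control of its own set, and nothing was renormalized. Precision rests on how many arrays a group holds.

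Of 54613 probe sets, 40914 were annotated to a single gene. Symbols were updated through RefSeq gene IDs (GRCh38.p14), and 41 found no match. A gene was tested where at least 1 group mean reached 4. ETP_DMSO replicate 2 and the array labelled 2-2 differed by an SD of 0.154, against 0.242 for the next closest pair of that group, and were counted as 1 sample, which left 100. Fits used limma 3.58.1 (R 4.3.3) with Benjamini-Hochberg adjustment over 11496 genes, and the method was tested on simulated data. Figures used matplotlib 3.10.9.

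The genes, lists and tests were chosen with earlier results of these data known. Named genes were the members, up to 4 called genes per list with the largest change in a comparison, and the 5 genes most like each member called in at least 2 compounds. A few further genes were named after their values were seen.

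Replicate numbers paired samples in 9 compounds, by correlation of deviations (every r over 0.1), and not in MMS or ETP. The main fits did not use this pairing, which entered only as an alternative, the replicate block. Alternatives changed the filter, the probe set rule, the normalization, the fit, the variance model, the fold minimum, the replicate block, the repeated array and the replicates.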

Additional observations from a re-analysis of the deposited data

Results flagged for a closer look

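In 18 of 153 groups of a member 1 sample stood apart from the rest, by its gap to the nearest sample relative to the group's range, where chance gives about 1 in 20, or 7.65. They came from 11 libraries, of which the library labelled ETP replicate 2 gave 5 and the library labelled QUE replicate 2 gave 3. In ETP replicate 2 these were TXNRD1 at 12.42 and PRDX4 at 11.26, above the other ETP samples, and PRDX2 at 9.61, PRDX3 at 10.61 and PRDX6 at 11.23, below them. In QUE replicate 2 they were TXNRD1 at 11.60 and PRDX4 at 10.77, below the other QUE samples, and PRDX6 at 11.60, above them. For TXNRD1, PRDX4 and PRDX6 each of these libraries departed from its group in the direction opposite to the other.

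MMS_CTL replicate 3 was low in SRXN1 (8.26) and TXN2 (7.72). CUR replicate 5 and CUR_DMSO replicate 5 were both low in PRDX4 (9.96 and 9.92). Single values apart were PRDX3 in GAD replicate 6 (10.55, low) and CUR replicate 6 (10.66, high), PRDX6 in BRO_DMSO replicate 5 (11.28, high), TXN in NCS replicate 3 (11.64, low) and ENU replicate 5 (12.12, high), and TXNRD1 in H2O2 replicate 3 (11.42, high).

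The other results singled out are tests in which 2 compounds' changes of the same gene differed. For SRXN1 these were tBHQ minus H2O2 (1.71), BRO minus H2O2 (1.32), GAD minus ENU (1.24) and CUR minus tBHQ (-0.93). For TXNRD1 they were tBHQ minus H2O2 (1.31), BRO minus H2O2 (1.15) and GAD minus ENU (0.73).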

How the results depend on the processing

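Recomputed counts of called members lay within 1.5 times the reported ones 258 times and outside 18 times. No result called in the main or the alternative fit changed sign. Members that were not called could change sign, as PRDX3 did in GAD, from -0.10 to 0.13 over the settings. That 0.13 came from averaging in a probe set at background. With probe sets averaged per gene the count was 1 in GAD, BRO and CUR and 0 in QUE, and 1 member differed between GAD and ENU and between BRO and H2O2, since TXNRD1's mean takes in a probe set at background. With no fold minimum the count was 1 in NCS, 4 in ENU, tBHQ and BRO, 7 in GAD and 5 in MMS and QUE, beside 7.7% of all genes in NCS, 33.2%, 31.9% and 30.2% in ENU, tBHQ and BRO, 61.7% in GAD and 35% and 33.4% in MMS and QUE. Between compounds it was then 5 for tBHQ and H2O2, 4 for GAD and ENU, 4 for tBHQ and GAD, 3 for QUE and CUR, and 5 for BRO and H2O2, beside 28.7%, 50%, 57.4%, 24.3% and 11.5% of all genes. Leaving out each replicate in turn gave 2 to 2 called members in GAD, tBHQ, BRO and CUR, 1 to 1 in QUE and 0 to 0 in MMC, NCS, H2O2, ENU, MMS and ETP.

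With the replicate number as a block the counts were 2 in GAD, tBHQ, BRO and CUR, 1 in QUE and 0 in the other 6 compounds, so the replicate block changed no member's call at 1.5-fold. Over all genes it gave 49 called higher and 11 lower in MMC, beside 19 and 0 without it. In H2O2 it gave 147 and 77, beside 88 and 19. In MMS, where the numbers did not pair samples, it gave 511 and 740, beside 513 and 754. Leaving out the library labelled replicate 2 in ETP, QUE or the pair of QUE and CUR, the block without it, and the lists and likeness without it were chosen after seeing the data. Signal over background leaves 3 of 17 probe sets untested.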
